A study of Rattus norvegicus with 17 samples.

Results

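Most genes described here encode enzymes that build cholesterol from acetyl-CoA or proteins that set how much of those enzymes a cell makes. Others, such as Stard4, Mylip and Faxdc2, encode related proteins. They were taken by name from a fixed set of 29 gene symbols. Of these, 27 were matched to a gene in the deposited counts, out of 30560 genes in all, and all 27 passed the filter on low counts that left 18005 genes for testing. The names Fdps and Lbr were not matched and are not analysed here.

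The libraries came from fetal testes of wild type Sprague Dawley rats. Pregnant dams had been dosed by oral gavage from gestational day 17 to 21 with dipentyl phthalate (DPeP), a phthalate ester plasticizer, dissolved in corn oil at 2.5 mL/kg, and testes were taken on gestational day 21. The vehicle group, given corn oil alone, had 3 libraries, as had each of the groups at 1, 11 and 100 mg/kg/d, and the group at 300 mg/kg/d had 5. A library held RNA of a single testis or of a pair from the same litter. The sources used here do not say whether any libraries share a dam, so the p-values measure the spread between these samples, which may in part be technical. All 17 libraries were of whole testis, so fewer cells of a type and less RNA per cell cannot be told apart.

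Cholesterol is made in a chain of steps that first condenses acetyl units into mevalonate, then builds isoprenoids and squalene, and at the end closes and trims the sterol ring. When a cell is low in sterols, SCAP escorts the transcription factor SREBP2 to the Golgi, where site-1 and site-2 proteases release the part that switches on most genes of the chain. INSIG proteins hold SCAP back when sterols are plentiful. In the fetal testis, Leydig cells use cholesterol as the starting material of testosterone.

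The 17 libraries held 14282274 to 20323488 gene counts each. At 100 mg/kg/d, replicates 05 and 18 were unlike the remaining 15 libraries. Transcripts of the mitochondrial genome made up 7.76% to 9.05% of their counts, against 4.35% to 6.16% in the others, and ribosomal protein genes 6.87% to 7.57%, against 4.28% to 5.46%. Results that rest on the dose of 100 mg/kg/d are therefore given with and without both. The 7 Leydig cell markers were all detected, and their summed level ran from 4782 to 6022 CPM (gene counts scaled to a library total of 1000000) in vehicle, 4108 to 5432 at 1 mg/kg/d, 3000 to 4066 at 11, 2348 to 3505 at 100 and 1377 to 2076 at 300. At 300 mg/kg/d, 6 of the 7 fell, where 1.41% of all genes tested fell. The part of the Leydig cells in the results below was not tested.

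In vehicle testes the level of the genes was read per gene length, as TPM (counts over exon length, scaled to a total of 1000000). Hmgcs1, which makes HMG-CoA at the entry to the mevalonate arm, stood highest at 202 ± 24 TPM (SD, n = 3). Below it, with no overlap of their libraries, came Cyp51, which removes a methyl group from lanosterol, at 159 ± 11.9 TPM. Msmo1, the next sterol demethylation enzyme, followed at 133 ± 18.7, and Dhcr7, which makes cholesterol in the last step of one branch, at 112 ± 5.81. From Cyp51 down to Pmvk each gene overlapped its neighbour in that order, through Msmo1, Dhcr7, Sqle, Insig1, Srebf2 and Mbtps1, so neighbours there cannot be put in order, while genes farther apart can: every Cyp51 value lay above every value of Dhcr7, Sqle, Srebf2 and Pmvk. Srebf2, the gene of SREBP2 itself, stood at 86.3 ± 10.8 TPM. At the low end were Mylip at 14.5 ± 1.13, Mbtps2 at 12.8 ± 1.34 and Faxdc2 at 12.1 ± 4.99 TPM, and each overlapped its neighbour.

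**Figure D1:**
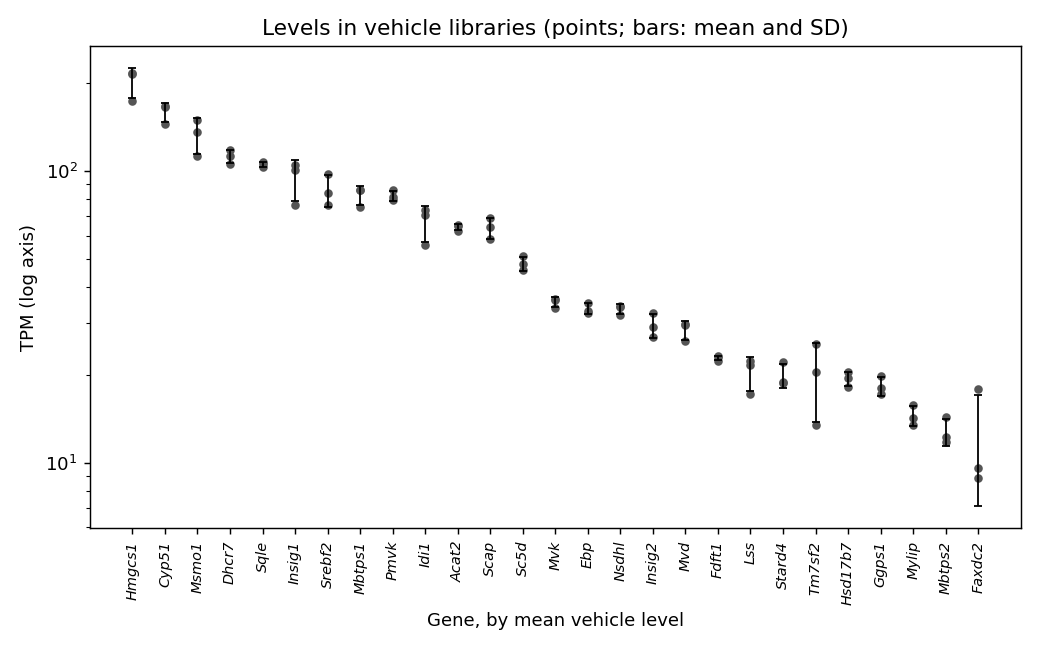
Level of the 27 genes in the 3 vehicle libraries in TPM on a log axis, ordered by mean. Points are libraries and bars run from 1 SD below to 1 SD above the mean. Hmgcs1 stands alone at the top with a mean of 202 TPM, and Faxdc2 is the lowest at 12.1 TPM.

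SREBP2 and its partner factors often bind just upstream of a gene, so the sequences of the 4 genes whose fall at 300 mg/kg/d against vehicle was called under all 14 alternatives tried are shown. They are the 250 bases before the RefSeq start on the build GRCr8, read 5′ to 3′ on the strand of the gene. Capitals mark CCAAT or its reverse complement ATTGG, the box of the partner factor NF-Y, and GGGCGG or its reverse complement CCGCCC, the box of Sp1. The windows lie at chr2:53382054-53382303 (+) for Hmgcs1, chr1:212789542-212789791 (-) for Tm7sf2, chr16:29746863-29747112 (+) for Msmo1 and chr4:8057770-8058019 (-) for Insig1.
Hmgcs1: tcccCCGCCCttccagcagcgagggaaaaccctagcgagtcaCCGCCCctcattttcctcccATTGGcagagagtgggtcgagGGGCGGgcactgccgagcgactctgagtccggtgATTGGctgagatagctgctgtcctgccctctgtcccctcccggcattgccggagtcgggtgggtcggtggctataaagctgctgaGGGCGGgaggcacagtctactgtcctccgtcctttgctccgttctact
Tm7sf2: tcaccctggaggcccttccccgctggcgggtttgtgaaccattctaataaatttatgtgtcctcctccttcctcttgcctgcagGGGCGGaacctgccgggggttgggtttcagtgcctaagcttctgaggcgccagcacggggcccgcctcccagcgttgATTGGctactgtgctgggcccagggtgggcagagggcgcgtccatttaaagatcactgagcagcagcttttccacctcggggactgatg
Msmo1: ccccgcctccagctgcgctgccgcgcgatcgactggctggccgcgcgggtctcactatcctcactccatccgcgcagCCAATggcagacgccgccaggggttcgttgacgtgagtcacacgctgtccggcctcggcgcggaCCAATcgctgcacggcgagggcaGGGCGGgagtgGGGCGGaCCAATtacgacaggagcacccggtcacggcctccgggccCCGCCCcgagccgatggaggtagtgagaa
Insig1: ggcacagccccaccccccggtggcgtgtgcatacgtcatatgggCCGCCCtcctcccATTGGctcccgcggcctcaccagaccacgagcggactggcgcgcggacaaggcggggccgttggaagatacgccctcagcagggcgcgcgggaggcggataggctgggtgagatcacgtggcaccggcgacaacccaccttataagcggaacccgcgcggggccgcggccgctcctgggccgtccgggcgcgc
Hmgcs1 held 2 NF-Y boxes and 4 Sp1 boxes in this window. Msmo1 held 3 of each. Insig1 and Tm7sf2 each held 1 NF-Y box and 1 Sp1 box. Mvk, not called at 300 mg/kg/d, held 5 NF-Y boxes and 2 Sp1 boxes. Cyp51 and Acat2, which fell, held 0 NF-Y boxes, with 1 and 2 Sp1 boxes. Whether the boxes go with the falls was not tested. A window was found for 23 of the 27 genes. None was matched for Fdft1, Pmvk, Sqle and Stard4. These 23 genes had 27 windows, 5 of them of Faxdc2. CCAAT on either strand was in 17 of the 27 windows (63.0%), against 34.0% of all 33469 windows of the same length, and in a window of 17 of the 23 genes (73.9%), against 36.1% of all genes with a window. GGGCGG on either strand was likewise in 17 of 27 windows (63.0%), against 30.5% of all windows, and in a window of 17 of the 23 genes, against 33.5% of all genes. The sterol regulatory element in the form TCACNCCAC, on either strand, was in 0 of 27 windows and in 0.974% of all windows. A match is a description of the letters and not a binding site, and other forms of the element were not searched.

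At 300 mg/kg/d, 10 of the 27 genes fell against vehicle and 0 rose. A gene is said to have been called, and to have risen or fallen, where edgeR's quasi-likelihood test gave an adjusted p (Benjamini-Hochberg, over all 18005 genes) under 0.05. The 10 make 37.0% of the set, where 1.41% of all genes tested were called lower and 0.994% higher. The median log2 fold change of the 27 was -0.44, against 0.01 for all genes tested, and 23 of the 27 were lower than vehicle. In 14 of the 27, every library at 300 mg/kg/d lay below every vehicle library, as it did for 6.48% of all genes. Before adjustment, 15 had a p under 0.05 on the lower side and 1, Mylip, on the higher side, against 5.63% and 7.65% of all genes. DESeq2 called 11 lower and 1 higher, and its share of all genes is not given here. Falls were spread over the chain: 4 of 5 genes of the mevalonate arm, 2 of 3 of the squalene steps, 3 of 8 of the sterol ring steps and 1 of 7 genes of control.

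**Figure D2:**
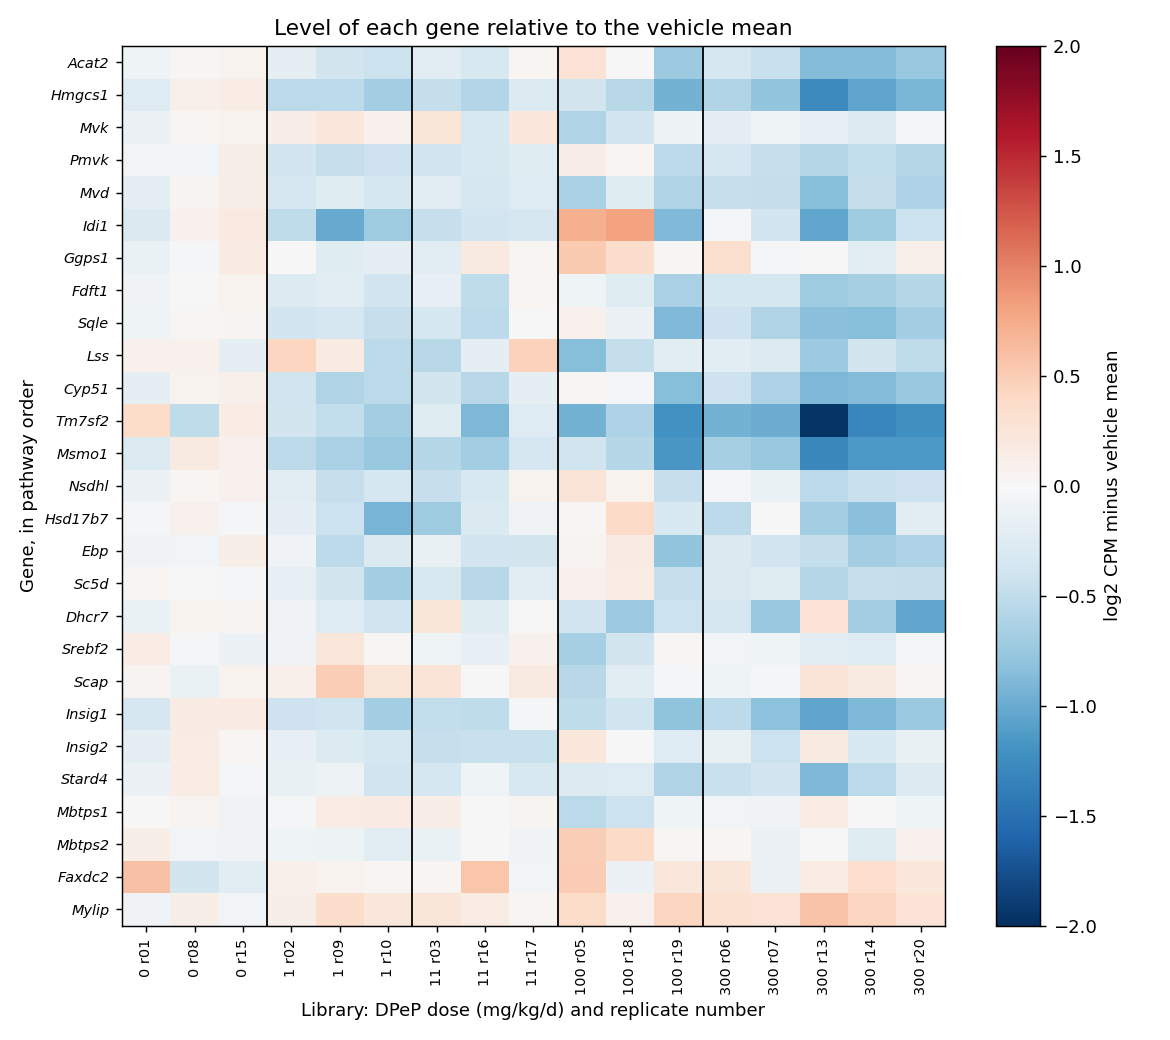
Level of the 27 genes in each of the 17 libraries, as log2 CPM minus the mean of the vehicle libraries (color, from -2 to 2). Columns are libraries labelled with dose and replicate number, and rows follow the pathway. Blue dominates at 300 mg/kg/d, while replicates 05 and 18 at 100 mg/kg/d differ from replicate 19, most visibly in Idi1.

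In the mevalonate arm, 4 of 5 genes fell. Hmgcs1 (ENSRNOG00000016552, chr2:51649497-51667100, + strand on mRatBN7.2) stood at 265, 340.2 and 351 CPM in vehicle replicates 01, 08 and 15 and at 207, 184, 130.3, 152 and 168 in replicates 06, 07, 13, 14 and 20 at 300 mg/kg/d. It stood at 217, 219.8 and 195 CPM at 1 mg/kg/d, at 228, 210.5 and 262 at 11, and at 245, 215 and 164 in replicates 05, 18 and 19 at 100. Every treated library was below the lowest vehicle library. The fall at 300 mg/kg/d was a log2 fold change of -0.92 (adjusted p = 0.000572, SE 0.140), which left 52.8% of the vehicle level.

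Acat2 makes acetoacetyl-CoA, the first condensation, and has a near copy, Acat2l1, with which read sharing was not checked. Acat2 (chr1:47695788-47752821, + strand) was at 125, 135 and 139 CPM in vehicle and at 105, 97.2, 73.2, 73.2 and 78.7 at 300 mg/kg/d. The middle doses gave 116, 103 and 98.3 at 1, 114, 107 and 137 at 11, and 163, 132 and 80.5 at 100. It fell by 0.64 on the log2 scale at 300 mg/kg/d (adjusted p = 0.0435, SE 0.165), with no overlap with vehicle, and of the 100 mg/kg/d libraries replicate 05 lay above vehicle and replicate 19 below.

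Pmvk, which adds the second phosphate to mevalonate, and Mvd, which turns the product into isopentenyl diphosphate, showed smaller falls. Pmvk (chr2:174876657-174886364, + strand) stood at 39.5, 39.8 and 44.7 CPM in vehicle and at 32.6, 29.9, 27.6, 29.3 and 27.6 at 300 mg/kg/d. Its libraries at 1 mg/kg/d were at 31.7, 30.0 and 30.9, those at 11 at 31.3, 33.0 and 35.0, and those at 100 at 45.1, 42.3 and 28.5. The fall was -0.49 (adjusted p = 0.0291, SE 0.119), and only replicates 05 and 18 at 100 mg/kg/d, among the treated libraries, were not below vehicle.

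Mvd (chr19:50496367-50507971, - strand) was at 33.1, 38.8 and 40.7 CPM in vehicle and at 27.1, 26.8, 20.8, 26.9 and 24.3 at 300 mg/kg/d. At the doses between it was at 29.5, 31.5 and 29.3, then 32.0, 29.6 and 31.2, then 23.9, 31.4 and 24.6. It fell by 0.58 on the log2 scale (adjusted p = 0.00611, SE 0.113), and all treated libraries lay below all vehicle libraries. An exon of Mvd overlaps another gene, and the library kit does not mark strand, so its counts are uncertain to that extent. Mvk, the kinase of the step before Pmvk, was the exception of the arm: it differed by -0.15 (adjusted p = 0.684, SE 0.127).

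The isoprenoid genes gave no call at this dose. Idi1, which interconverts the isoprenoid building blocks, differed by -0.49 (adjusted p = 0.434, SE 0.258), and its 300 mg/kg/d libraries ran from 39.0 to 78.4 CPM. Ggps1, which leads from the sterol chain to geranylgeranyl groups, differed by 0.03 (adjusted p = 0.953, SE 0.136). Exons of Idi1 overlap Wdr37, and read sharing with its near copy Idi2 was not checked.

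Of the squalene steps, the genes that join farnesyl units and that oxidize squalene fell. Fdft1, squalene synthase (chr15:37412146-37440287, - strand), was at 115, 122 and 127 CPM in vehicle and at 94.6, 94.6, 73.8, 76.3 and 81.2 at 300 mg/kg/d. It was at 99.9, 104 and 92.9 at 1 mg/kg/d, at 108, 84.9 and 125 at 11 and at 115, 103 and 76.9 at 100. The fall was -0.53 (adjusted p = 0.0313, SE 0.129), without overlap.

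Sqle, squalene epoxidase (chr7:90868011-90883618, + strand), stood at 119, 129 and 131 CPM in vehicle and at 94.7, 83.5, 70.9, 70.1 and 78.7 at 300 mg/kg/d. Values at the other doses were 96.6, 99.7 and 92.0 at 1, 99.4, 87.8 and 126 at 11, and 134, 116 and 68.3 at 100. It fell by 0.67 on the log2 scale (adjusted p = 0.0247, SE 0.157). Replicate 05 at 100 mg/kg/d lay above all vehicle libraries and replicate 19 below all libraries at 300. Lss, which closes the ring, differed by -0.42 (adjusted p = 0.404, SE 0.207), though its 5 libraries at 300 mg/kg/d were below vehicle.

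Among the 8 genes that trim the sterol ring, Tm7sf2, Msmo1 and Cyp51 fell. Tm7sf2, a sterol reductase (ENSRNOG00000020989, chr1:203355931-203360270, - strand), had the largest fold change of the 27. It stood at 15.6, 8.54 and 13.4 CPM in vehicle and at 6.23, 6.08, 3.04, 4.85 and 5.12 at 300 mg/kg/d. Its libraries at 1 mg/kg/d gave 9.35, 8.64 and 7.45, those at 11 gave 10.2, 6.46 and 10.1, and those at 100 gave 6.22, 7.92 and 5.18. The log2 fold change was -1.30 (adjusted p = 0.00209, SE 0.227), which left 40.4% of the vehicle level. The vehicle libraries themselves spread widely, and replicate 08 lay within the range seen at 1 and 11 mg/kg/d.

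Msmo1 (ENSRNOG00000032297, chr16:24980697-24998016, + strand) was at 80.0, 109.7 and 103 CPM in vehicle and at 60.8, 56.9, 39.4, 43.8 and 43.4 at 300 mg/kg/d. It was at 67.4, 61.3 and 57.2 at 1 mg/kg/d, at 65.2, 59.5 and 76.8 at 11 and at 73.2, 65.1 and 43.2 at 100. The log2 fold change was -0.998 (adjusted p = 0.00098, SE 0.160), to 50.1% of vehicle, and all 14 treated libraries lay below all 3 vehicle libraries.

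Cyp51 (chr4:30036865-30055410, + strand) stood at 188, 222 and 228 CPM in vehicle and at 159.6, 138, 113, 116 and 126 at 300 mg/kg/d. The other doses gave 161, 139 and 146 at 1, 164, 144 and 188 at 11, and 215, 206 and 117 at 100. The fall was -0.70 (adjusted p = 0.0159, SE 0.155), and replicates 05 and 18 at 100 mg/kg/d were inside the vehicle range.

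The other 5 ring genes were lower without passing the test, with log2 fold changes from -0.31 for Nsdhl to -0.49 for Ebp, the sterol isomerase. Ebp and Sc5d, the desaturase after it, had all 5 libraries below vehicle. Dhcr7 differed by -0.44 (adjusted p = 0.346, SE 0.200), and its replicate 13 at 300 mg/kg/d, at 159 CPM, lay above the vehicle range of 120.4 to 138. Its other 4 libraries at that dose lay below that range, and Dhcr7 was called in 1 of 14 alternatives. Exons of Hsd17b7 overlap another gene.

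**Figure D3:**
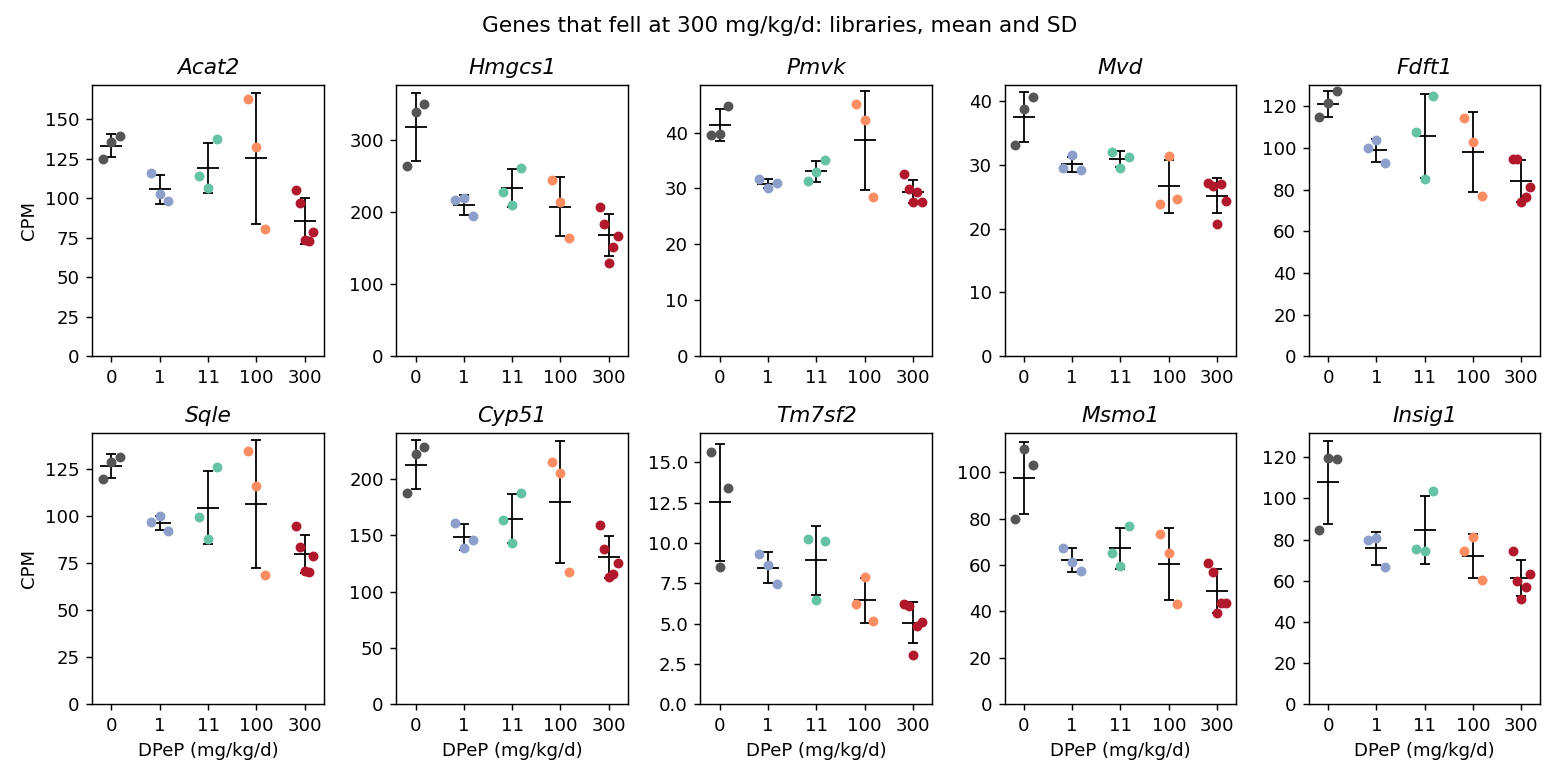
CPM of the 10 genes that fell at 300 mg/kg/d in every library by dose of DPeP in mg/kg/d, with 0 for vehicle; dots are libraries, horizontal bars the mean and vertical bars 1 SD. In all 10 the 5 libraries at 300 mg/kg/d lie below the 3 vehicle libraries, while the 3 libraries at 100 mg/kg/d are spread widely in Acat2, Sqle and Cyp51.

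In the control layer, Insig1 was the 1 gene of 7 that fell. Insig1 is itself a target of SREBP2. Insig1 (ENSRNOG00000006859, chr4:7315495-7323952, - strand) was at 84.5, 119.6 and 119 CPM in vehicle and at 74.4, 60.1, 51.1, 57.2 and 63.5 at 300 mg/kg/d. At 1 mg/kg/d it was at 79.8, 80.8 and 66.5, at 11 at 75.6, 74.6 and 104, and at 100 at 74.4, 81.1 and 60.5. It fell by 0.82 on the log2 scale (adjusted p = 0.00219, SE 0.143), and replicate 17 at 11 mg/kg/d was the single treated library inside the vehicle range.

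The other control genes did not pass the test. Srebf2 stood at 204, 181 and 171 CPM in vehicle and at 178, 174, 159, 155 and 179 at 300 mg/kg/d, which is a log2 fold change of -0.13 (adjusted p = 0.717, SE 0.123) with overlapping groups. Scap differed by 0.07 (adjusted p = 0.865, SE 0.118) and has an exon overlap with another gene. Mbtps1 and Mbtps2, the site-1 and site-2 proteases, differed by -0.01 (SE 0.0983) and -0.04 (SE 0.111). Insig2 differed by -0.17 (SE 0.143). Mylip, a ubiquitin ligase, was counted with the control genes by the grouping used here. It was at 18.1, 20.7 and 18.4 CPM in vehicle and at 23.5, 22.9, 28.4, 25.7 and 22.9 at 300 mg/kg/d. All 5 lay above vehicle, but the difference of 0.37 (SE 0.113) had an adjusted p of 0.0934.

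Stard4, a sterol carrier protein of the cytosol, stood at 21.0, 25.3 and 22.2 CPM in vehicle and at 16.6, 17.4, 12.2, 15.7 and 18.8 at 300 mg/kg/d. It was at 20.6, 21.3 and 17.3 at 1 mg/kg/d, at 17.7, 21.4 and 18.3 at 11 and at 18.7, 19.0 and 15.0 at 100. The difference at 300 mg/kg/d was -0.50 (adjusted p = 0.0531, SE 0.134), without overlap. Faxdc2, a relative of the sterol oxidases, differed by 0.11 (adjusted p = 0.876, SE 0.196).

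The calls at 300 mg/kg/d did not all have the same footing. Hmgcs1, Tm7sf2, Msmo1 and Insig1 were called in all 14 alternatives, Mvd in 13 and Cyp51 in 11, but Sqle and Fdft1 in 7 each and Acat2 and Pmvk in 6 each. Leaving out a single library left 4 to 10 genes called. Among vehicle libraries, leaving out replicate 15 gave 4, replicate 08 gave 5 and replicate 01 gave 6. At 300 mg/kg/d, leaving out replicate 14 gave 6. The titles carry a sample code, and adding it to the fit left 5 called. The shares of all genes called in these fits are not given here. Within the code S447, which held 1 vehicle library and 2 of 300 mg/kg/d, the log2 ratio of Hmgcs1 was -1.16 and that of Insig1 was -1.10. Within S448, which held 1 vehicle library and 3 of 300 mg/kg/d, they were -0.59 and -0.38. Tm7sf2 was at -1.56 within S447 and -1.53 within S448. The code S446 held no library at 300 mg/kg/d. Vehicle replicate 08 carries that code, so its Tm7sf2 level of 8.54 CPM, the lowest in vehicle, enters neither ratio. Without the 2 libraries at 100 mg/kg/d that stood apart, which enter only through the shared estimate of spread, 13 genes were called lower and Mylip higher, where 2.77% of all genes were called lower and 2.09% higher. That alternative was chosen after seeing the data.

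At 1 mg/kg/d, the lowest dose, no gene of the set passed the test and no gene of all those tested did. The same quasi-likelihood test with edgeR called 0 of 27 lower, with 0% of all genes lower, and DESeq2 called 0. Before adjustment, 11 of 27 had a p under 0.05 on the lower side and 1 on the higher side, against 2.17% and 2.78% of all genes. In 15 of the 27 every library at 1 mg/kg/d lay below every vehicle library, against 7.65% of all genes. The median log2 fold change was -0.30. Idi1 differed by -0.74 (SE 0.294), Msmo1 by -0.65 (SE 0.183) and Hmgcs1 by -0.60 (SE 0.160), each with an adjusted p of 0.864. Idi1 was at 56.5, 39.9 and 48.6 CPM, below vehicle values of 65.2, 85.3 and 92.0. The same 3 vehicle libraries serve as reference at every dose, so low values at 1 and at 300 mg/kg/d are not independent of each other.

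**Figure D4:**
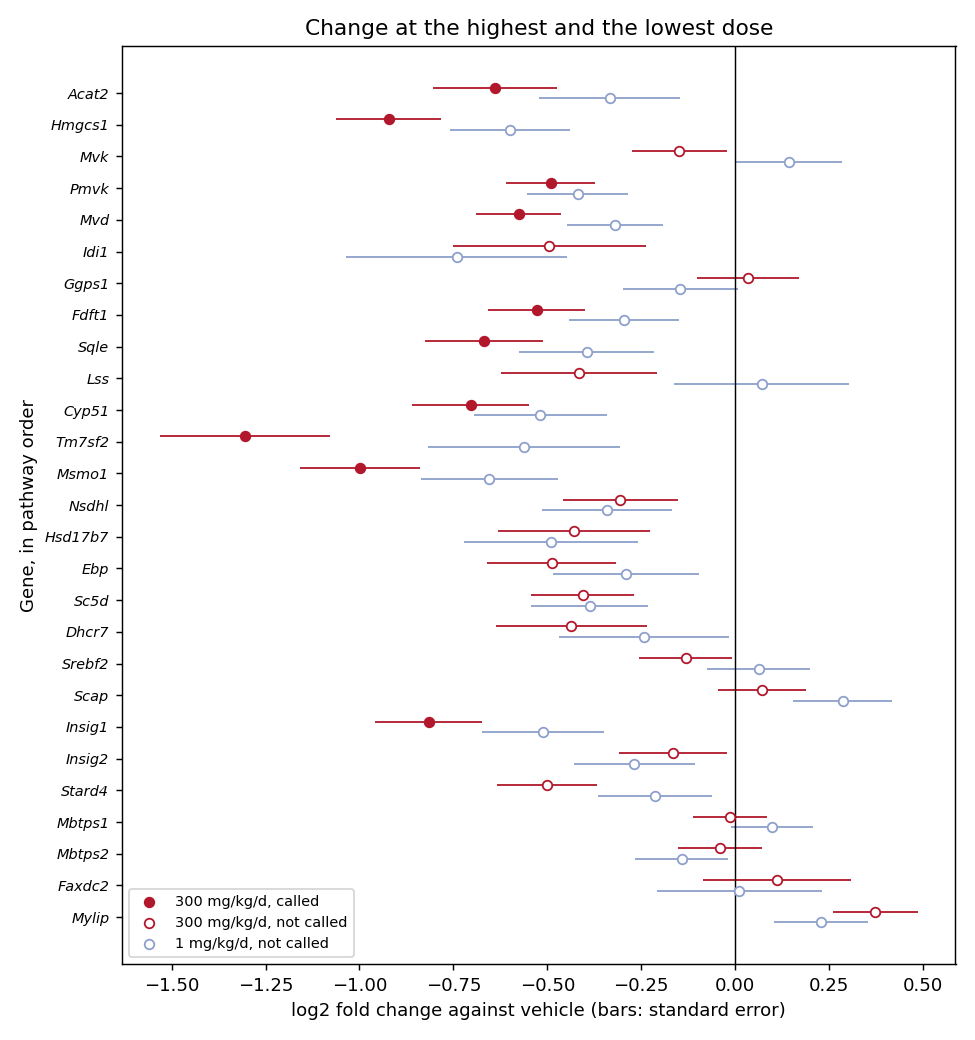
log2 fold change against vehicle of the 27 genes in pathway order at 300 mg/kg/d (red, filled where called) and at 1 mg/kg/d (blue, none called), with bars of 1 standard error. Tm7sf2, Msmo1, Hmgcs1 and Insig1 lie farthest to the left at 300 mg/kg/d, at -1.30, -0.998, -0.92 and -0.82, and both doses share the vehicle libraries.

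The dose of 11 mg/kg/d gave no call either. edgeR called 0 of 27 lower, with 0% of all genes lower, and DESeq2 called 0. Before adjustment, 7 had a p under 0.05 on the lower side and 0 on the higher side, against 2% and 1.51% of all genes. In 9 of the 27 all libraries were below all vehicle libraries, against 6.94% of all genes, and the median log2 fold change was -0.26. Set against each other, 11 and 1 mg/kg/d gave 0 called genes among the 27 in either direction, with 0% of all genes lower and 0.00555% higher. DESeq2 also called 0. Unadjusted p-values under 0.05 numbered 0 on either side, against 2.22% and 2.25% of all genes. Of the 27, 18 were higher at 11 than at 1 mg/kg/d and 9 lower, where 50.9% of all genes tested were lower. Their median log2 fold change was 0.10. The largest difference was that of Idi1, at 0.33 (SE 0.294).

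At 100 mg/kg/d edgeR called 0 of 27 genes against vehicle, where 1.03% of all genes were called lower and 0.494% higher. Before adjustment 12 were under 0.05 on the lower side and 2 on the higher side, against 8.68% and 10.5% of all genes. In 10 of the 27 all 3 libraries were below vehicle, against 7.89% of all genes. The median log2 fold change was -0.25, against 0.05 for all genes tested. DESeq2 called 6 lower, which were Tm7sf2, Hmgcs1, Insig1, Msmo1, Mvd and Mbtps1. The share of all genes called by DESeq2 is not given here, so these 6 have no background beside them. The adjusted p closest to the threshold was that of Mvd, with a log2 fold change of -0.49 (adjusted p = 0.0591, SE 0.128). Hmgcs1 followed at -0.61 (adjusted p = 0.0599, SE 0.160), and Msmo1 at -0.69 (adjusted p = 0.0631, SE 0.183).

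The 3 libraries of that dose did not resemble each other. The counts in this paragraph are among the 27 genes only. Matching shares of all genes tested are not given here, so the counts describe the libraries and not a trait of the set. Replicate 19 lay below every vehicle library in 20 of the 27 genes and within the range of the 300 mg/kg/d libraries in 23. Replicates 05 and 18 were both below vehicle in 13 and both above it in 4, which were Idi1, Ggps1, Sc5d and Mbtps2. In those 4 genes both also exceeded all 14 libraries of the other doses. Idi1 was at 130.4 and 139 CPM in replicates 05 and 18 and at 43.5 in replicate 19. Replicate 19 was below both in 18 genes and above both in 6, which were Mvk, Lss, Srebf2, Scap, Mbtps1 and Mylip. Srebf2, for one, was at 116 and 142 CPM in replicates 05 and 18 and at 188 in replicate 19.

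**Figure D5:**
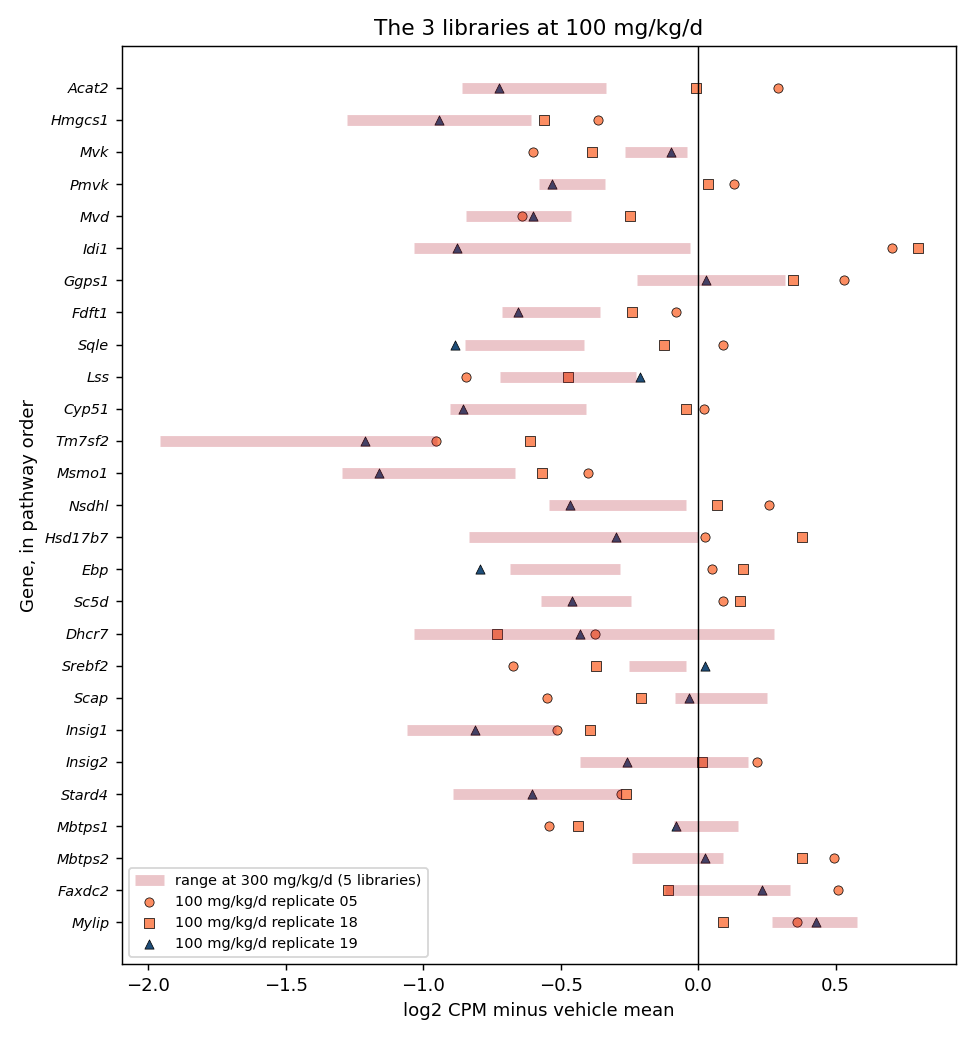
Level of the 27 genes in the 3 libraries at 100 mg/kg/d, as log2 CPM minus the vehicle mean (vertical line at 0), beside the range of the 5 libraries at 300 mg/kg/d (bars). Replicate 19 (triangles) lies within the bar in 23 of 27 genes, while replicates 05 (circles) and 18 (squares) lie to the right of it in Idi1, Acat2 and Cyp51 and to the left of it in Srebf2, Scap and Mbtps1.

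These libraries differed in other ways as well. The summed level of the Leydig markers was 3412 and 3505 CPM in replicates 05 and 18 and 2348 in replicate 19. The 5 germ cell markers summed to 220 and 238 CPM against 139, where vehicle ran from 101 to 130. The 5 endothelial markers summed to 158 and 210 CPM against 316, where vehicle ran from 377 to 384. The part of these differences, and of the mitochondrial and ribosomal shares given above, in the levels of the cholesterol genes was not tested. With both libraries left out, replicate 19 alone stands for the dose, and its spread is taken from the other groups. In that fit Msmo1 at -1.18 (SE 0.228), Hmgcs1 at -0.96 (SE 0.204), Sqle at -0.89 (SE 0.176) and Cyp51 at -0.86 (SE 0.18) fell, with adjusted p from 0.0367 to 0.0492, where 0.294% of all genes were called lower. With replicate 19 left out instead, 9 of the 27 were called lower and 3 higher, where 11.1% of all genes were called lower and 12.5% higher. Mbtps2, Idi1 and Ggps1 stood above vehicle in both remaining libraries.

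Between neighbouring doses the step from 11 to 100 mg/kg/d gave 1 call, where 2.15% of all genes were called lower and 2.59% higher. Mbtps1, the site-1 protease, was at 297, 271 and 281 CPM at 11 mg/kg/d and at 186, 200.1 and 256 at 100. It fell by 0.40 on the log2 scale (adjusted p = 0.0452, SE 0.110), without overlap. It was at 273, 282 and 257 CPM in vehicle, at 268, 300.3 and 302 at 1 mg/kg/d and at 259.9, 256, 299, 272 and 255 at 300, so the low values belong to replicates 05 and 18. Without those 2 libraries, 0 of the 27 were called, and 0% of all genes. From 100 to 300 mg/kg/d edgeR called 0 of 27, where 0% of all genes were lower and 0.00555% higher. DESeq2 called 3 lower and 1 higher, and its share of all genes is not given here. Before adjustment, 9 were under 0.05 on the lower side and 2 on the higher side, against 14.3% and 9.94% of all genes. Without replicates 05 and 18, 0 of the 27 were called in this step, and 0% of all genes. Without replicate 19, 14 of the 27 were called lower and 3 higher, where 16.9% of all genes were called lower and 15.8% higher.

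Fitted as 1 slope on log2(dose + 1) over all 17 libraries, 7 of 27 genes fell with dose and 0 rose, where 2.98% of all genes were called lower and 2.74% higher. They were Tm7sf2, with a slope of -0.14 log2 units per unit of log2(dose + 1) (adjusted p = 0.00162, SE 0.0244), Msmo1 at -0.09, Hmgcs1 at -0.08, Insig1 at -0.08, Mvd at -0.06, Stard4 at -0.05 and Fdft1 at -0.05. A called slope is not a step down at every dose. In each of the 7 but Stard4, the mean CPM was higher at 11 than at 1 mg/kg/d, as in Hmgcs1 at 234 against 210. The slope of Fdft1, with an adjusted p of 0.0482, lost its call in 14 of 24 alternatives and that of Stard4 in 5, while the other 5 genes each lost it in 1. Stard4 was the 1 gene called by the slope and not at 300 mg/kg/d, with a slope error of 0.0134 and an adjusted p of 0.0245. Acat2, Pmvk, Sqle and Cyp51, which fell at 300 mg/kg/d, were not called by the slope, and in all 4 replicate 05 at 100 mg/kg/d was inside or above the vehicle range. Before adjustment, 14 had a p under 0.05 on the lower side and 1 on the higher side, against 8.69% and 10.5% of all genes. DESeq2 called 8 lower and 1 higher, and its share of all genes is not given here. Without the libraries at 300 mg/kg/d, 0 of the 27 genes had a called slope. The share of all genes called in that fit is not given here, so this 0 is not read as a trait of the set. Without the 2 libraries that stood apart at 100 mg/kg/d, 12 were called lower and 1 higher, where 4.72% of all genes were called lower and 4.82% higher.

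Other genes of the pathway were read from lists given by name. Of 14 other genes of cholesterol synthesis and SREBP control, 3 fell at 300 mg/kg/d and 0 rose (unadjusted p under 0.05 on the higher side in 2, DESeq2 0), 2 fell and 1 rose at 100, and 4 fell and 1 rose by the slope. Of all genes, 1.41% were called lower and 0.994% higher at 300 mg/kg/d. The shares were 1.03% and 0.494% at 100, and 2.98% and 2.74% by the slope. Without replicates 05 and 18 at 100 mg/kg/d, 0 of the 14 were called at 100 and 5 fell and 1 rose by the slope. For that slope, 4.72% of all genes were called lower and 4.82% higher. At 100 mg/kg/d that fit rests on replicate 19 alone, so its 0 is not read as a trait of the list. Of the 14 genes, Aacs, which activates acetoacetate for sterol synthesis, fell by 0.48 on the log2 scale at 300 mg/kg/d (adjusted p = 0.0096, SE 0.0988). The median log2 fold change of the 14 at 300 mg/kg/d was -0.15, against -0.44 for the 27. On the non-sterol branch of the same chain, which makes dolichol, ubiquinone side chains and protein prenyl groups, 9 of 10 names were tested. At 300 mg/kg/d edgeR called 0 of the 9, 0 had an unadjusted p under 0.05, DESeq2 called 0, and their median log2 fold change was -0.08. With 1.41% of all genes called lower and 0.994% higher, a count of 0 of 9 does not set this branch apart.

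Of the cell markers given by name, beside the Leydig list, at 300 mg/kg/d 1 of 7 Sertoli markers fell and 3 rose, and 1 of 5 germ cell markers rose. Of all genes tested, 1.41% were called lower and 0.994% higher at that dose. Both tested adrenal cortex markers of 4 fell, from a summed 20.8 to 29.1 CPM in vehicle to 1.35 to 2.99. By edgeR and by DESeq2, 0 markers were called of 5 peritubular myoid, 5 endothelial, 5 macrophage, 4 hepatocyte, 4 red blood cell and 2 mesonephric duct and epididymis markers tested. Before adjustment, 1 myoid, 1 endothelial and 1 duct marker had a p under 0.05. The hepatocyte markers, of a tissue that makes much cholesterol, summed to 5.70 to 16.9 CPM in vehicle and to 3.98 to 132 at 300 mg/kg/d. The part of these cell types in the falls of the cholesterol genes was not tested.

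Outside all these lists, the genes whose levels ran most alike to the mean of the 10 fallen genes over the 17 libraries were Rusc1, Hnrnpa2b1 and Smc4, among 15883 genes compared. Their Spearman correlations of log2 CPM were 0.96, 0.89 and 0.88, which describe libraries that share doses and scaling. Rusc1 stood at 184 ± 25.3 CPM in vehicle (SD, n = 3) and at 128 ± 10.4 at 300 mg/kg/d (SD, n = 5), a log2 fold change of -0.53 (adjusted p = 0.0325). Hnrnpa2b1, at -0.18 (adjusted p = 0.444), and Smc4, at -0.31 (adjusted p = 0.270), were not called at that dose.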

How the data were processed

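PolyA-selected RNA of fetal testis was sequenced in 17 libraries. The submitters' processing notes name Trimmomatic 0.36, STAR 2.5.2b, featureCounts of Subread 1.5.2 and the build mRatBN7.2. The deposited files hold raw counts per gene, per the file headers, with coordinates and exon length. The sources used here do not give the strand setting of the counting. A deposited TPM table and a deposited log2 table were not used, and the TPM given here were computed from the counts. The deposited table of the whole series repeats rows, held the same counts and was used for gene names. After 92 spike-in rows were left out, 30560 genes remained.

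Dose groups came from the treatment labels. All 17 libraries entered 1 fit of edgeR 4.0.16 (R 4.3.3) with TMM scaling and filterByExpr by dose group, and 18005 genes were tested with the quasi-likelihood F test and Benjamini-Hochberg adjustment. A standard error is the absolute log2 fold change divided by the root of its F. CPM use TMM-scaled library sizes. Alternatives were DESeq2 1.42.0, its size factors, no filter, the sample code, only the groups compared, dose rank and leaving out libraries. Genes are given in full where called at 100 or 300 mg/kg/d, between neighbouring doses or by the slope, and the others by counts and ranges. The 3 most alike genes outside the lists were chosen by Spearman correlation. Lists of other pathway genes, the non-sterol branch and cell markers are given by counts, and some genes of the pathway are not reported by name here. Members and lists were chosen with earlier results of these data known. Promoter windows are RefSeq's, on GRCr8. The scripts were tested on simulated data.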

Additional observations from a re-analysis of the deposited data

How the results depend on the processing

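The count of called genes stayed at 0 at 1 and 11 mg/kg/d against vehicle and between these doses, under every alternative run. For 300 mg/kg/d against vehicle it was 5 once the fit held the sample code and 4 to 10 with a library left out. For 100 mg/kg/d against vehicle, with 0 in the reported fit, it was 4 with no filter, 4 without both libraries that stood apart, 6 with DESeq2 and 0 to 12 with a library left out. For 100 against 11 it was 0 with the sample code, 0 with only the groups compared, 0 without both libraries, 5 with DESeq2 and 0 to 10 with a library left out. For 300 against 100 it was 1 with no filter, 4 with DESeq2 and 0 to 17 with a library left out. For the slope it was 13 without both libraries, 0 without the 300 mg/kg/d libraries and 5 to 10 with a library left out. These are counts among the 27 genes, and calls over all genes moved too. Without replicate 19 at 100 mg/kg/d, 11.1% of all genes were called lower and 12.5% higher at that dose against vehicle. The shares were 16.1% and 16.6% for 100 against 11, and 16.9% and 15.8% for 300 against 100. For most alternatives the share of all genes is not given here. The causes of these changes were not tested. Of 2943 alternative values of single genes, 2785 kept their side of the threshold, 92 crossed to called and 66 to not called. The sign differed from the reported value in 135, among them 17 at 100 mg/kg/d against vehicle. All 135 were not called in either fit. No paired analysis was possible because each replicate number occurs once in the series. The number of libraries, 3 in most groups, limits the precision.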
